A study of Mus musculus with 12 samples.

Results

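The genes that mark the mesenchymal or the epithelial state of a tumor were examined in 12 MC38 tumors. They were taken by symbol and are 10 of the 18211 genes in the expression table. They are the intermediate filament gene Vim, the transcription factor genes Zeb1, Zeb2, Snai1, Snai2, Twist1, Twist2 and Prrx1, and the epithelial genes Epcam and Krt8. MC38 is a colorectal adenocarcinoma line from the C57BL/6 mouse, and its cells had been placed under the skin of female C57BL/6 mice bought at 5 weeks of age. Grouping took place on day 7 after injection, and each of the 4 groups was sampled as 3 tumors. CK tumors came from mice given vehicle only. The PB-020 group took this inhibitor of the IGF-1 receptor by mouth at 50 mg/kg each day. The anti-PD-1 group received the checkpoint antibody at 200 μg per mouse, injected on days 9, 12, 15 and 18. The PB-020+anti-PD-1 group, here the combination, received both. Whole tumors were sequenced, host and tumor RNA map to the same genome, and fewer cells of a type cannot be told apart from less RNA per cell. The labels do not say that each tumor came from its own mouse, so p values measure only the spread between these tumors.

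Epithelial cells that lose their junctions and keratins and take up a migratory form pass through epithelial-mesenchymal transition (EMT). The zinc finger proteins ZEB and SNAI and the helix-loop-helix proteins TWIST drive it, and repress epithelial genes such as those for E-cadherin, EpCAM and keratins. The same factors are expressed normally in fibroblasts, and ZEB2 also in macrophages and in activated lymphocytes, so in a whole tumor their RNA can come from malignant or host cells.

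The libraries summed to between 16545394 and 17217035 expected counts (median 16927043), so depth was nearly even. A gene was called at an adjusted p under 0.05 in edgeR over 13563 genes tested. Against CK, edgeR called 0 genes in PB-020 (741 at an unadjusted p under 0.05; DESeq2 called 6 and limma 0), 1120 under anti-PD-1 and 2434 in the combination. Tissue markers differed between libraries. The 12 skeletal muscle markers summed to 1448.6 TPM in anti-PD-1 tumor 1, against 29.05 to 157.22 in the others. The 6 adipocyte markers summed to 200.44 TPM in CK tumor 3, against 0 to 17.37 in the others. Combination tumor 2 held 6.77 FPKM of the basal keratin gene Krt5 and 2.95 of Krt15, and PB-020 tumor 3 was next with 4.94 and 0.75. The sum of the 10 keratinocyte markers was highest in combination tumor 1, at 373.88 TPM, beside 348.99 in combination tumor 2. After these values were seen, anti-PD-1 tumor 1, CK tumor 3 and combination tumor 2 were left out together as an alternative (the fit without 3 libraries), and again with PB-020 tumor 3 (without 4).

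Promoter sequence is shown for the epithelial genes that were nearly silent, for Zeb2, which had the largest called change among the 8 genes tested, for Snai1, which holds the same motif as the epithelial genes, and for Twist1 and Twist2, which varied together. The windows are the 250 bases before the start of the gene in RefSeq (GRCm38.p6), written in the direction of transcription. They lie at chr17:87635729-87635978 for Epcam (plus strand), chr15:102004343-102004592 for Krt8 (minus strand), chr2:167537945-167538194 for Snai1 (plus strand), chr2:45117443-45117692 for Zeb2 (minus strand, the outermost of its 4 listed starts), chr12:33957421-33957670 for Twist1 (plus strand) and chr1:91801211-91801460 for Twist2 (plus strand). Capitals mark CACCTG or its reverse complement CAGGTG, the letters that ZEB and SNAI proteins are known to bind, and TATAAA (either strand), the TATA element.
Epcam: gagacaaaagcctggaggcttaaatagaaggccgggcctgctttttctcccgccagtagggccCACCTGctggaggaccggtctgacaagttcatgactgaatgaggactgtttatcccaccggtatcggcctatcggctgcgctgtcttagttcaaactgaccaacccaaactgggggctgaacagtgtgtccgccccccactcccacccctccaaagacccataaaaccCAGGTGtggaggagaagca
Krt8: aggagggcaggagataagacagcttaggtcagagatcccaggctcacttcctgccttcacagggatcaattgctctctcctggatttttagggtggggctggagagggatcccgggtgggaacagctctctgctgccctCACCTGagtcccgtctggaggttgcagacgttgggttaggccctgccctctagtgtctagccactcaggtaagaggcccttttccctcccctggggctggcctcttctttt
Snai1: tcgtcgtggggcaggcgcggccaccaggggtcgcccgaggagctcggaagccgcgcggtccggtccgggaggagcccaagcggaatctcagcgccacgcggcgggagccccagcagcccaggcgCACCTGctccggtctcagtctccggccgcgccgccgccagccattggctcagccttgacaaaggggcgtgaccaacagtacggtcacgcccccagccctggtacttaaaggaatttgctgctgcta
Zeb2: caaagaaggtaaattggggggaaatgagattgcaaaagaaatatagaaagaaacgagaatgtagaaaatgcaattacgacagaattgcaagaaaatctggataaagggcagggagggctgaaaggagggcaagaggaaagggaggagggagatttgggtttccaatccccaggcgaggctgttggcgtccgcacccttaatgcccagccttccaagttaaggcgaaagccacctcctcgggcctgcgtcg
Twist1: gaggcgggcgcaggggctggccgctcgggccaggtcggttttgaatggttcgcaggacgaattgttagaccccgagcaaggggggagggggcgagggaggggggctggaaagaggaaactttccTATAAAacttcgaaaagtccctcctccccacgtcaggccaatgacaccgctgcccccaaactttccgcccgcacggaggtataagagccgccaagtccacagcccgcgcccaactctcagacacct
Twist2: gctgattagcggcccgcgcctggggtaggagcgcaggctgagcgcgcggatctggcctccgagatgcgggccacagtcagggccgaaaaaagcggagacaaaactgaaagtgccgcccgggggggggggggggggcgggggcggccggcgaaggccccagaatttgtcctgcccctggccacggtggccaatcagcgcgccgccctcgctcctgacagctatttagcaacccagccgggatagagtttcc
The CACCTG motif occurred at both ends of the Epcam window, 187 and 19 bases before the start, and once each in Krt8 (111 bases) and Snai1 (126 bases). None of the windows of Vim, Zeb2, Twist1, Twist2 or Prrx1 held it, and 17.2% of 32851 mouse windows of this length did. TATAAA was found 32 bases before the start in Vim and 126 in Twist1, against 12.4% of all windows. The Twist1 and Twist2 windows share no motif of these, with a GC content of 62.4% and 68.8% and 18 and 23 CpG sites, against 56.4% and 8 in Epcam and 58.0% and 3 in Krt8. Windows were listed for 8 of the 10 genes. These matches are letters in a window and say nothing of binding in these tumors.

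In CK tumors the mesenchymal genes were abundant and the epithelial genes were close to absent. Vim (chr2:13574311-13582826), which encodes the filament that defines mesenchymal cells, ranked 37 of 18211 genes by FPKM in CK, with 2053.3 ± 154.5 FPKM (SD, n = 3). The 7 factors lay far below Vim and close to each other, between 15.39 and 47.66 FPKM in any tumor. Vim stood at 79.9 times the median of the 7, and the highest factor at 2.06 times the lowest, on means over the 12 tumors. Among the factors in CK, Prrx1 (chr1:163245119-163315145), a homeobox gene of limb and connective tissue, was the highest at 43.5 ± 3.8 FPKM. Zeb2 (chr2:44983512-45117442) followed at 32.9 ± 3.0 and Twist2 (chr1:91801461-91848034) at 30.6 ± 2.8. Twist1 (chr12:33957671-33959831) had 24.5 ± 2.1 FPKM and Snai2 (chr16:14705852-14709395) 24.1 ± 2.8. Snai1 (chr2:167538195-167542814) and Zeb1, on chromosome 18, were the lowest, at 22.0 ± 4.3 and 21.87 ± 1.73. The means of the last 4 differed from each other by less than the SD of Snai1.

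**Figure D1:**
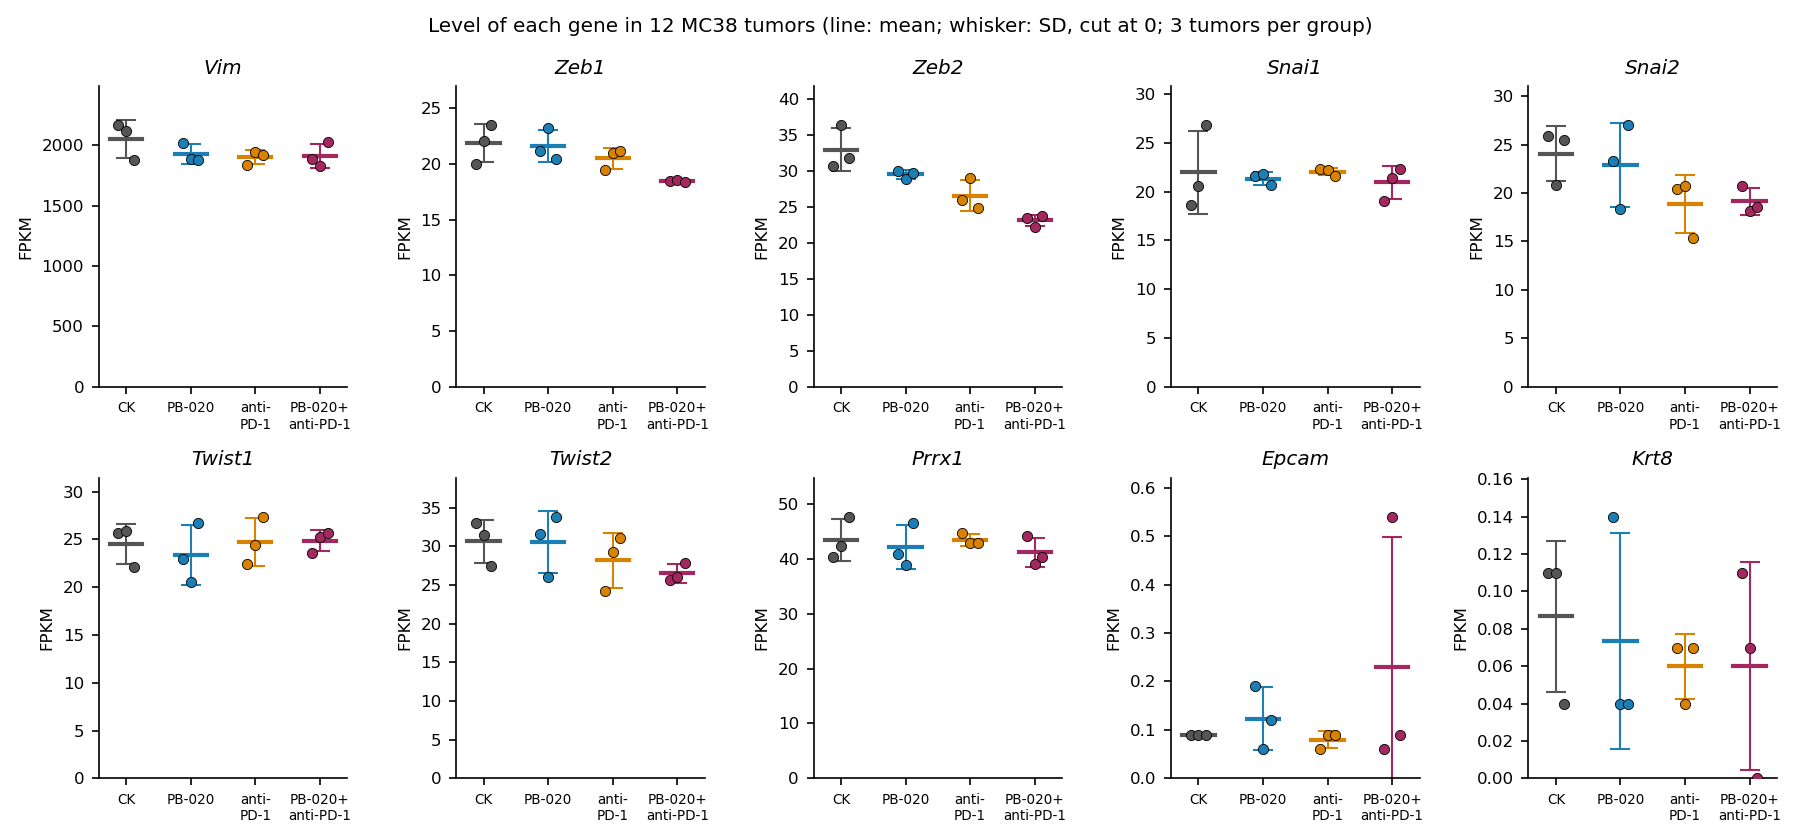
Level in FPKM of each of the 10 genes in every tumor, by treatment, with the group mean and SD over 3 tumors. Zeb2 falls from 30.6 to 36.3 in CK to 22.24 to 23.66 in the combination, Zeb1 is lowest in the combination, and Epcam and Krt8 stay under 1 FPKM in all 12 tumors.

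Epcam (chr17:87635979-87651127), the adhesion molecule of epithelial cells, and Krt8 (chr15:101996711-102004342), the keratin of simple epithelia, were each under 1 FPKM in all 12 tumors. Epcam had 3 counts in every CK tumor, 6, 2 and 4 counts in PB-020, 2, 3 and 3 under anti-PD-1, and 2, 17 and 3 in the combination. The only tumor well apart was combination tumor 2, with 17 of the 51 Epcam counts in the series, and it also held the most Krt5 and Krt15. Krt8 had 3, 3 and 1 counts in CK, 4, 1 and 1 in PB-020, 2, 1 and 2 under anti-PD-1, and 3, 2 and 0 in the combination, where a count of 0 allows up to 3 counts. Most of these values are at or under 3 counts, so no fold change is given. The filter on low counts left both genes out of the main edgeR fit, and neither was called in DESeq2 or in edgeR with no filter. The lowest factor, by mean FPKM over the 12 tumors, stood 157.6 times above Epcam and 294.5 times above Krt8. Krt18, the partner of Krt8 in simple epithelia, was listed at 0 in 7 libraries and reached at most 0.14 FPKM. A difference of a few counts between groups was not detectable at this depth.

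The other genes of the programme divided in the same way by level. Of 37 mesenchymal effector genes (matrix, contractile and surface genes), 31 had a mean over 10 FPKM and the median gene had 66.1. Of 17 listed regulators of the epithelial state, 13 were under 1 FPKM, with a median of 0.0433. These include Ovol2, a repressor of Zeb1 in epithelia, at 0 in 11 libraries, Grhl2, at most 0.10 FPKM, and the splicing factor gene Esrp1, at most 0.29, in combination tumor 2. Klf4 was the highest of this list, at a mean of 155.8 FPKM, and Cdx2, a factor of intestinal epithelium, was at 0 in 10 libraries. Both were named after their values were known. Epcam, Krt8, Krt18 and Cdx2, markers of a colorectal adenocarcinoma such as the label names, were thus at or near 0 in these tumors. Other genes of the epithelial lists were present in every tumor. Gata6 had 5.75 to 8.09 FPKM, Foxa1 1.99 to 3.02 and Lgals4 4.3 to 8.04, also named after their values were known. Of 33 epithelial structural genes, 22 were under 1 FPKM (median 0.254). Cdh1, the E-cadherin gene that ZEB and SNAI repress, was between 1.59 and 3.96 FPKM, below Cdh2, the N-cadherin gene, at 5.47 to 7.11. The ranges of Cdh1 and Cdh2 did not overlap. Krt14, of basal keratinocytes, reached 76.03 to 206.39 FPKM.

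**Figure D2:**
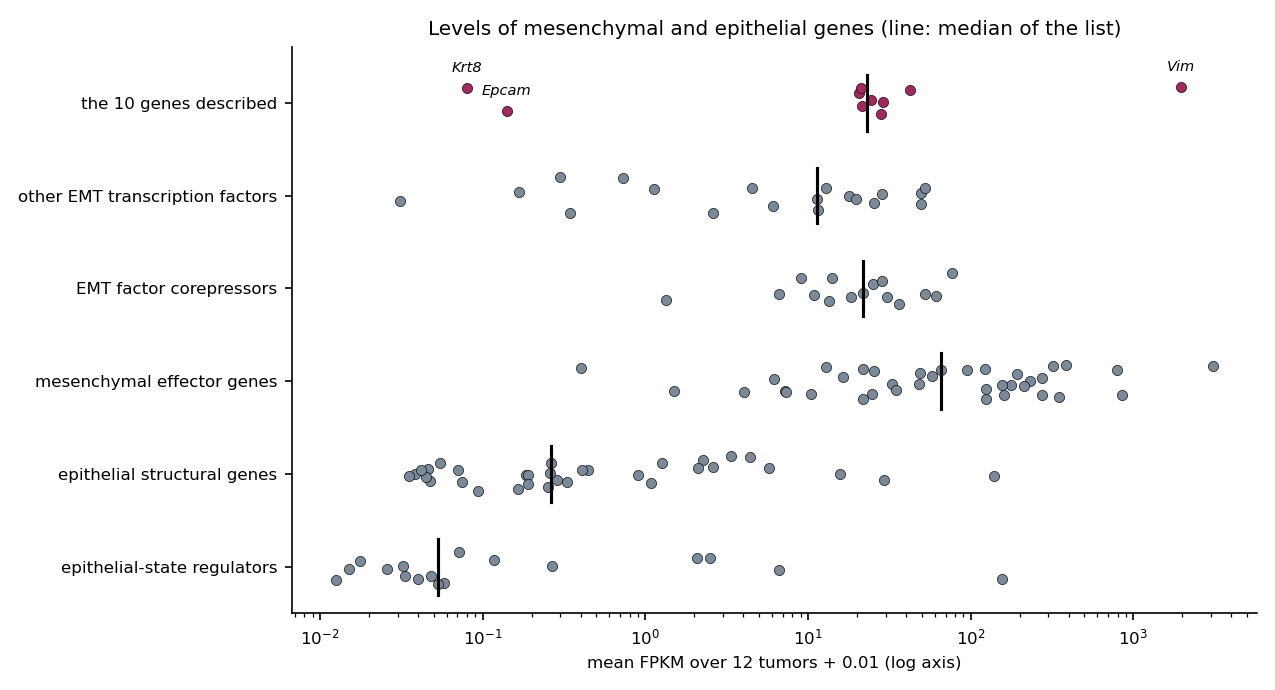
Mean FPKM over the 12 tumors, plus 0.01, on a log axis, for the 10 genes and for 5 lists of EMT genes, 1 point per gene, with the list median as a line. Vim lies far to the right, Epcam and Krt8 lie among the epithelial genes at the left, and the 7 factors sit close together.

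Which of the genes changed with treatment was asked next. Against CK, 0 of the 8 tested genes were called in PB-020, 1 under anti-PD-1 (Zeb2) and 2 in the combination (Zeb1 and Zeb2), all lower. Over all 13563 genes the share called lower was 0%, 4.08% and 9.6%, and in either direction 0%, 8.26% and 17.9%. In PB-020, 0 of the 8 had an unadjusted p under 0.05 in edgeR, beside 5.46% of all genes, and DESeq2 and limma also called 0. The median log2 change of the 8 was -0.04 with PB-020, -0.08 with anti-PD-1 and -0.14 with both, beside medians of 0.00 over all genes tested. These comparisons share the CK tumors.

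**Figure D3:**
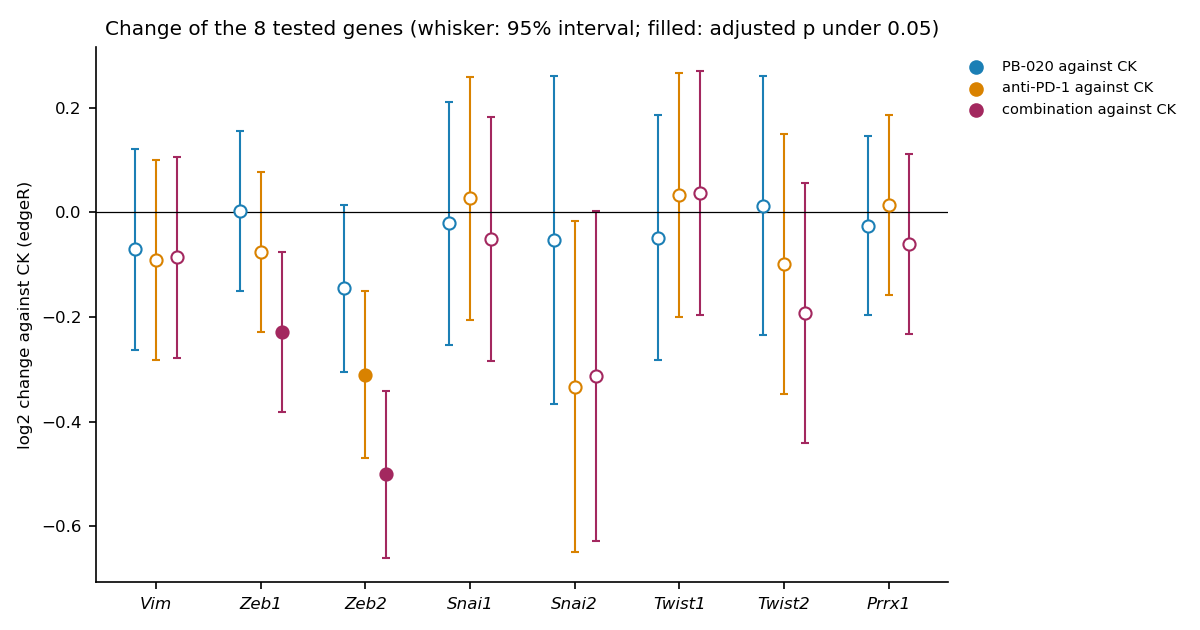
Log2 change against CK from edgeR for the 8 tested genes in 3 comparisons, with 95% intervals; filled points have an adjusted p under 0.05. The filled points are Zeb2 in the combination, Zeb2 under anti-PD-1 and Zeb1 in the combination, all below 0.

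Zeb2, a zinc finger repressor of E-cadherin, had the largest called fall of the 8 tested genes. It stood at 30.6, 36.3 and 31.8 FPKM in the CK tumors and at 29.98, 28.83 and 29.7 in PB-020. Under anti-PD-1 the values were 25.93, 28.91 and 24.8, and in the combination 23.37, 22.24 and 23.66. Every combination tumor was below every tumor of the other 3 groups, and anti-PD-1 and PB-020 overlapped by 1 tumor each. In edgeR, Zeb2 fell by 0.50 on the log2 scale in the combination against CK (SE 0.07, adjusted p = 0.0023), which is 1.41-fold lower and rank 61 of 13563 by p. Under anti-PD-1 it fell by 0.31 (SE 0.07, adjusted p = 0.0249), which is 1.24-fold. In PB-020 the log2 change was -0.15 (95% interval -0.30 to 0.01, edgeR adjusted p = 0.874), although all 3 tumors lay below the CK tumors, as did 8.74% of all genes.

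Between treated groups, Zeb2 in the combination had a log2 change of -0.36 against PB-020 (SE 0.07, edgeR adjusted p = 0.0308), the 1 call among the 8 genes, beside 3.35% of all genes. Against anti-PD-1 the log2 change was -0.19 (95% interval -0.35 to -0.03, unadjusted p = 0.0232, edgeR adjusted p = 0.663), and edgeR called 0 of all genes there (984 at an unadjusted p under 0.05; DESeq2 called 1 and limma 0). Averaged over tumors with and without PB-020, the anti-PD-1 change of Zeb2 was -0.33 (SE 0.05, edgeR adjusted p = 0.00132), and Zeb1 was the other of 2 genes called, with -0.15 (adjusted p = 0.0401), beside 24.2% of all genes. That call of Zeb1 was lost with no filter, without the 3 or the 4 libraries, and in 8 of the 12 fits without 1 library (CK tumor 2 or 3, PB-020 tumor 1 or 2, anti-PD-1 tumor 1, or any combination tumor). For Zeb2, the corresponding change with PB-020 was -0.17 (SE 0.05, unadjusted p = 0.00662, edgeR adjusted p = 0.31), where 0% of all genes were called. The sum of the single changes of Zeb2 was -0.46, and the departure of the combination from it was -0.04 (SE 0.11, edgeR unadjusted p = 0.676). Its 95% interval ran from -0.27 to 0.18, so departures within that range were not excluded. Between anti-PD-1 and PB-020, 0 of the 8 genes were called in edgeR (Zeb2 had an unadjusted p of 0.0437), beside 0.192% of all genes. The order of means of Zeb2 was CK, PB-020, anti-PD-1, combination, and no neighbours in this order differed at the adjusted threshold.

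The fall of Zeb2 in the combination was called in edgeR without any 1 of the CK or combination libraries and without the 3 or the 4 libraries. The anti-PD-1 call was lost without CK tumor 2 (edgeR adjusted p = 0.118), anti-PD-1 tumor 1 (0.0628) or anti-PD-1 tumor 3 (0.104), without the 3 or the 4 libraries together (0.0985 and 0.106), and when only the 2 groups were fitted (0.107). The call against PB-020 was lost without PB-020 tumor 1 or 3 or any 1 combination tumor, where edgeR called between 0 and 105 of all genes, against 455 with every library. It was also lost without the 4 libraries. GENCODE lists 5 other genes that overlap Zeb2, 4 of them on the opposite strand, among them the antisense gene Zeb2os. Whether counting used strand is not given in the sources used here, so reads of Zeb2 and Zeb2os cannot be told apart. Genes on the opposite strand also overlap Zeb1 (2 genes), Twist2, Prrx1 and Krt8 (1 each).

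Zeb1, the other ZEB gene, had the smaller change. The CK tumors had 20.03, 22.1 and 23.47 FPKM and the PB-020 tumors 21.19, 23.19 and 20.41. The anti-PD-1 tumors had 19.43, 20.99 and 21.13, and the combination tumors 18.51, 18.56 and 18.36. The combination tumors were tightly grouped and below all 9 others, while the other groups overlapped. In edgeR, Zeb1 fell by 0.23 on the log2 scale in the combination against CK (SE 0.07, adjusted p = 0.0409), which is 1.17-fold lower. Under anti-PD-1 the log2 change was -0.08 (95% interval -0.23 to 0.08, edgeR adjusted p = 0.523) and in PB-020 0.00 (95% interval -0.15 to 0.16, adjusted p = 0.998). Against anti-PD-1 the change of the combination was -0.15 (edgeR adjusted p = 0.684), and against PB-020 -0.23 (adjusted p = 0.0814). The departure from the sum of single changes was -0.16 (SE 0.10, edgeR unadjusted p = 0.146).

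The call for Zeb1 was near the threshold. It was lost without CK tumor 2 (edgeR adjusted p = 0.123), CK tumor 3 (0.149), or combination tumor 1 (0.0993), 2 (0.0977) or 3 (0.0934), without the 3 or the 4 libraries together (0.129 and 0.126) and with no filter on low counts (0.0575). Over the fits without 1 library the log2 change lay between -0.28 and -0.18.

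The SNAI genes encode zinc finger repressors of E-cadherin. Snai2 (Slug) stood at 25.89, 20.84 and 25.51 FPKM in CK, 23.28, 18.37 and 27 in PB-020, 20.41, 20.77 and 15.39 under anti-PD-1 and 20.76, 18.1 and 18.58 in the combination. In FPKM, all tumors given anti-PD-1 lay below all CK tumors, by a narrow margin against CK tumor 2, and PB-020 overlapped every group. In TPM, anti-PD-1 tumor 1 had 39.09, above CK tumor 2 at 38.37, so the anti-PD-1 and CK groups overlapped. The edgeR log2 change was -0.33 under anti-PD-1 (95% interval -0.65 to -0.02, adjusted p = 0.166) and -0.31 in the combination (95% interval -0.63 to 0.00, adjusted p = 0.151). With only CK and the combination in the fit the latter was called (adjusted p = 0.0345). Averaged over both PB-020 states, the anti-PD-1 change of Snai2 was -0.30 (SE 0.10, edgeR adjusted p = 0.0536), and it was called in DESeq2 (adjusted p = 0.0351). Snai1 (Snail) did not separate the groups, with 18.65 to 26.79 FPKM in CK, 20.62 to 21.75 in PB-020, 21.63 to 22.3 under anti-PD-1 and 19.07 to 22.34 in the combination. Its widest range was within CK, where tumor 3 was the highest. Its log2 changes against CK lay between -0.05 and 0.03 (edgeR adjusted p of at least 0.77).

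The counts of non-overlap, made on FPKM, were read against all genes. In the combination, 3 of the 8 tested genes (Zeb1, Zeb2 and Snai2) had all 3 tumors below all CK tumors, beside 22.4% of all genes tested. Under anti-PD-1 it was 2 (Zeb2 and Snai2, the latter not in TPM), beside 17.2%, and in PB-020 1 (Zeb2). Zeb1 and Zeb2 were below every anti-PD-1 tumor in the combination, beside 4.9% of all genes, and below every PB-020 tumor, beside 15.7%. The share of all genes below every other tumor at once was not counted. None of the 8 lay wholly above CK in any treated group, beside 6.19% of all genes in PB-020, 11.8% under anti-PD-1 and 17.9% under both.

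The TWIST genes encode helix-loop-helix factors of the mesoderm. Twist1 had 25.63, 25.85 and 22.11 FPKM in CK, 22.94, 20.5 and 26.76 in PB-020, 22.4, 24.44 and 27.38 under anti-PD-1, and 23.63, 25.22 and 25.71 in the combination. Twist2 had 32.97, 31.44 and 27.51 FPKM in CK, 31.65, 26.06 and 33.84 in PB-020, 24.26, 29.26 and 31.04 under anti-PD-1, and 25.67, 25.99 and 27.89 in the combination. All groups overlapped for both. The log2 change of Twist1 in the combination against CK was 0.04 (95% interval -0.20 to 0.27, edgeR adjusted p = 0.844), and that of Twist2 was -0.19 (95% interval -0.44 to 0.06, adjusted p = 0.259). Within each group, the tumor lowest in Twist1 was also the lowest in Twist2.

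Prrx1 and Vim had the lowest coefficients of variation of the 8 tested genes over the 12 tumors, 6.64% and 5.64%. Prrx1 was at 42.1 ± 4.0 FPKM in PB-020, 43.5 ± 1.1 under anti-PD-1 and 41.2 ± 2.7 in the combination (SD, n = 3). Its edgeR log2 changes against CK lay between -0.06 and 0.01. Vim was at 1928.4 ± 79.3 FPKM in PB-020, 1900.8 ± 56.9 under anti-PD-1 and 1912.6 ± 102.6 in the combination. Its log2 changes were -0.07, -0.09 and -0.09, with edgeR adjusted p of 0.946, 0.548 and 0.53. The 95% interval in the combination ran from -0.28 to 0.11.

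Which of the genes varied together from tumor to tumor was then computed, after the group mean of log2 CPM had been taken from each tumor. Of 28 pairs, 16 were positive and 12 negative, with a median Pearson r of 0.0361. Twist1 and Twist2 had the highest, r = 0.93 over 12 tumors (two-sided exact permutation within groups, p = 0.00154, adjusted p = 0.0431 over the 28 pairs). The smallest p that the 1296 permutations can give is 0.00077. Spearman's rho was 0.85 (exact permutation p = 0.0131, adjusted p = 0.367). Without the 2 tumors farthest from the median of Twist1, r was 0.91, and without any 1 tumor it was between 0.913 and 0.950. The 2 were PB-020 tumors 2 and 3. CK tumor 3 and anti-PD-1 tumor 1, the lowest in both genes within their groups, were not left out together. The correlation was not computed without the 3 or the 4 libraries. On log2(FPKM + 1) values r was 0.93 and the exact permutation p was 0.00309 (adjusted p = 0.0865), so the adjusted call was lost. RSEM divides reads between similar genes. The counts of all 10 genes were whole in all 12 libraries, and the part of shared reads in this correlation was not tested. Vim and Twist2 were next (r = 0.68, exact permutation p = 0.0394, adjusted p = 0.552). Zeb1 and Zeb2 had r = 0.23, and Zeb2 was between 0.01 and 0.23 with each of the others.

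**Figure D4:**
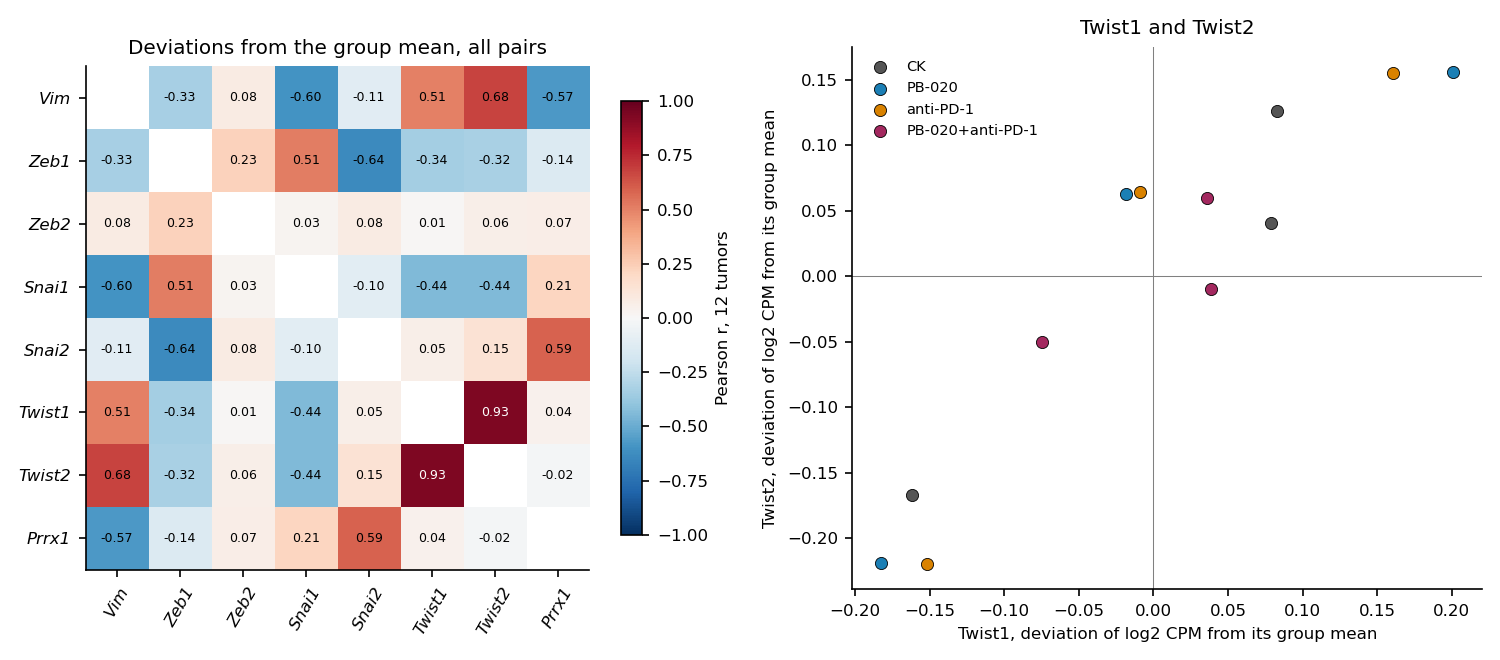
Left, Pearson r over 12 tumors between the deviations from the group mean of log2 CPM for each pair of the 8 tested genes, as colour and number. Right, the same deviations of Twist1 and Twist2, 1 point per tumor, coloured by treatment; the tumors low in one are low in the other, with r = 0.93.

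By the same measure, each gene was compared with 11843 genes with a mean of at least 1 FPKM, as a description with no test. The nearest to Twist1 were Twist2 (r = 0.932) and Yipf1 (r = 0.93), and the nearest to Twist2 were Twist1 and Ubtf, a factor of ribosomal RNA transcription, both with r = 0.932. For Zeb2 the nearest were Spred1, an inhibitor of Ras signaling (r = 0.96), and the exoribonuclease gene Xrn1 (r = 0.93). For Zeb1 they were Supt20 and Zfp28 (both r = 0.93), for Snai1 Zfp36l1 (r = 0.94) and Rnase6 (r = 0.93), and for Snai2 Cpped1 (r = 0.96) and Rcan1 (r = 0.93). For Vim they were Srp68 (r = 0.96) and Gatad1 (r = 0.93), and for Prrx1 Plcl2 (r = 0.89) and Mlkl (r = 0.87). None of the 8 tested genes was among the nearest of another, apart from the TWIST pair.

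The other EMT transcription factors are the partners and relatives of the 7. Of 16 tested, 4 were called lower and 0 higher in the combination against CK in edgeR, beside 9.6% and 8.35% of all genes, and 2 and 0 without the 3 or the 4 libraries. These were Tcf4 (log2 change -0.68, adjusted p = 0.00182), Prrx2 (-0.41, 0.0418), Sox4 (-0.34, 0.0419) and Tcf12 (-0.30, 0.0168). Tcf4 and Tcf12 encode E proteins, the dimer partners of TWIST, and Prrx2 is the homolog of Prrx1. Tcf4 had 23.24, 27.21 and 26.66 FPKM in CK, 21.88, 20.93 and 20.31 in PB-020, 14.91, 19.52 and 15.95 under anti-PD-1, and 14.73, 15.6 and 16.84 in the combination. All tumors given anti-PD-1 were below all tumors without it for Tcf4. Of all genes, 17.2% under anti-PD-1 and 22.4% in the combination lay wholly below CK. Wholly below PB-020 lay 11.9% and 15.7%, and the share for all these groups at once was not counted. In anti-PD-1 against CK, 1 of the 16 was called lower and 2 higher, beside 4.08% and 4.18% of all genes. The median log2 change of the 16 in the combination was 0.11, opposite in sign to the called genes.

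Of the 15 corepressor and turnover genes through which SNAI and ZEB proteins act or are degraded, 2 were called higher in the combination and 0 lower in edgeR, beside 8.35% and 9.6% of all genes. Without the 3 libraries 0 were called higher, and without the 4 it was 1. These were Ajuba (log2 change 0.26, adjusted p = 0.033), a SNAI corepressor, and Suz12 (0.20, adjusted p = 0.0485), a subunit of Polycomb complex PRC2. The median log2 change was 0.08. Of the 5 tested regulators of the epithelial state, 0 were called in edgeR and 0 had an unadjusted p under 0.05, with a median of -0.08.

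Of 19 tested epithelial structural genes, 3 were called higher and 2 lower in the combination (median log2 change 0.57), beside 8.35% and 9.6% of all genes. Of 18 tested without the 3 libraries, 0 were called higher and 2 lower, and without the 4 it was 2 and 3. The higher ones were Krt14 (1.04, edgeR adjusted p = 0.00453), Pkp3, of desmosomes (0.62, 0.023), and Spint1, a protease inhibitor of epithelia (0.57, 0.0438). The lower one with the largest change was Jup, plakoglobin (-1.32, 0.000954), with 22.47 to 25.64 FPKM in CK and 8.80 to 10.29 in the combination. Krt14 is also a keratinocyte marker, and the 10 keratinocyte markers summed to 152.8 to 215.53 TPM in CK and 303 to 373.88 in the combination, without overlap. Krt14 itself weighs most in this sum. In combination tumor 1, with the highest sum, 5 of the 10 markers were at 0 and Krt14 was at 206.39 FPKM. Of 5 keratinocyte markers tested, 1 was called higher, which is Krt14 itself, and 0 without the 3 or the 4 libraries. Cdh1 had a log2 change of 0.56 (edgeR adjusted p = 0.0686) and was not called. The part of skin in these values was not tested.

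Of the 37 mesenchymal effector genes, 11 were called lower and 2 higher in the combination in edgeR, with a median log2 change of 0.05, beside 9.6% and 8.35% of all genes. The fibrillar collagen gene Col3a1 fell by 1.56 on the log2 scale (adjusted p = 0.0023), the proteoglycan gene Dcn by 1.21 (adjusted p = 0.0103) and Col6a2, of collagen VI, by 1.06 (adjusted p = 0.00168). Fn1, fibronectin, fell by 0.76 (adjusted p = 0.0223), and Postn, periostin, rose by 1.34 (adjusted p = 0.039). Cdh2 had a log2 change of 0.12 (edgeR adjusted p = 0.354). The study singled out collagen genes among those changed in these tumors, so the fall of Col3a1 and Col6a2 is not independent evidence of a direction. In PB-020 against CK, 0 of the 92 tested genes of these 5 lists were called in edgeR, and 4 had an unadjusted p under 0.05.

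Zeb2 and Tcf4 are also expressed by host cells, so the cell type markers are given beside them. The 10 fibroblast markers, which include Col3a1 and Dcn, summed to 3205 to 4384.1 TPM in CK, 2922.1 to 3085.1 in PB-020, 1370.8 to 2991.4 under anti-PD-1 and 1447.5 to 2124.9 in the combination. Col3a1 had the highest level of the 10 and so weighed most in this sum, with a mean of 1349 FPKM in CK and 451.6 in the combination. Of the 10 markers, 3 were called lower, beside 9.6% of all genes, and 6 had a positive log2 change in the combination, with a median of 0.28. The 10 macrophage markers, none of them at 0, summed to 3109.2 to 3754.5 TPM in CK and 3098.4 to 3619.8 in PB-020. The sums were 2960.1 to 6124.1 TPM under anti-PD-1 and 3846.4 to 4239.6 in the combination. Lyz2 had the highest level of the 10 and so weighed most in this sum. Its mean was 987.2 FPKM in CK and 1405 in the combination. In the combination 0 of these markers were called in edgeR (1 at an unadjusted p under 0.05), and 7 of 10 had a positive log2 change. Of 12 T cell markers 10 were called higher, beside 8.35% of all genes. The 12 summed to 27.6 to 37.51 TPM in CK and 70.96 to 106.53 in the combination.

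Pericyte and erythroid sums were lower in the combination than in CK without overlap. Over all genes tested, 9.6% were called lower in the combination and 8.35% higher. Of 8 pericyte and smooth muscle markers, 4 were called lower in the combination in edgeR, and 2 without the 3 or the 4 libraries. The 8 summed to 157.8 to 191.35 TPM in CK and 131.63 to 149.72 in the combination. Of 10 endothelial markers, 1 was called lower, near the share of all genes, with 111.89 to 174.29 TPM in CK and 98.12 to 116.22. The 5 tested erythroid markers were all called lower, with sums of 1217.9 to 2760.8 TPM in CK and 223.6 to 305.02 in the combination. Of 12 skeletal muscle markers and 2 tested adipocyte markers, 0 were called in edgeR (0 and 1 at an unadjusted p under 0.05). The part of these cell types in the fall of Zeb1 and Zeb2 was not tested. Without the 3 libraries, the log2 change of Zeb2 in the combination was -0.51 (edgeR adjusted p = 0.00508).

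**Figure D5:**
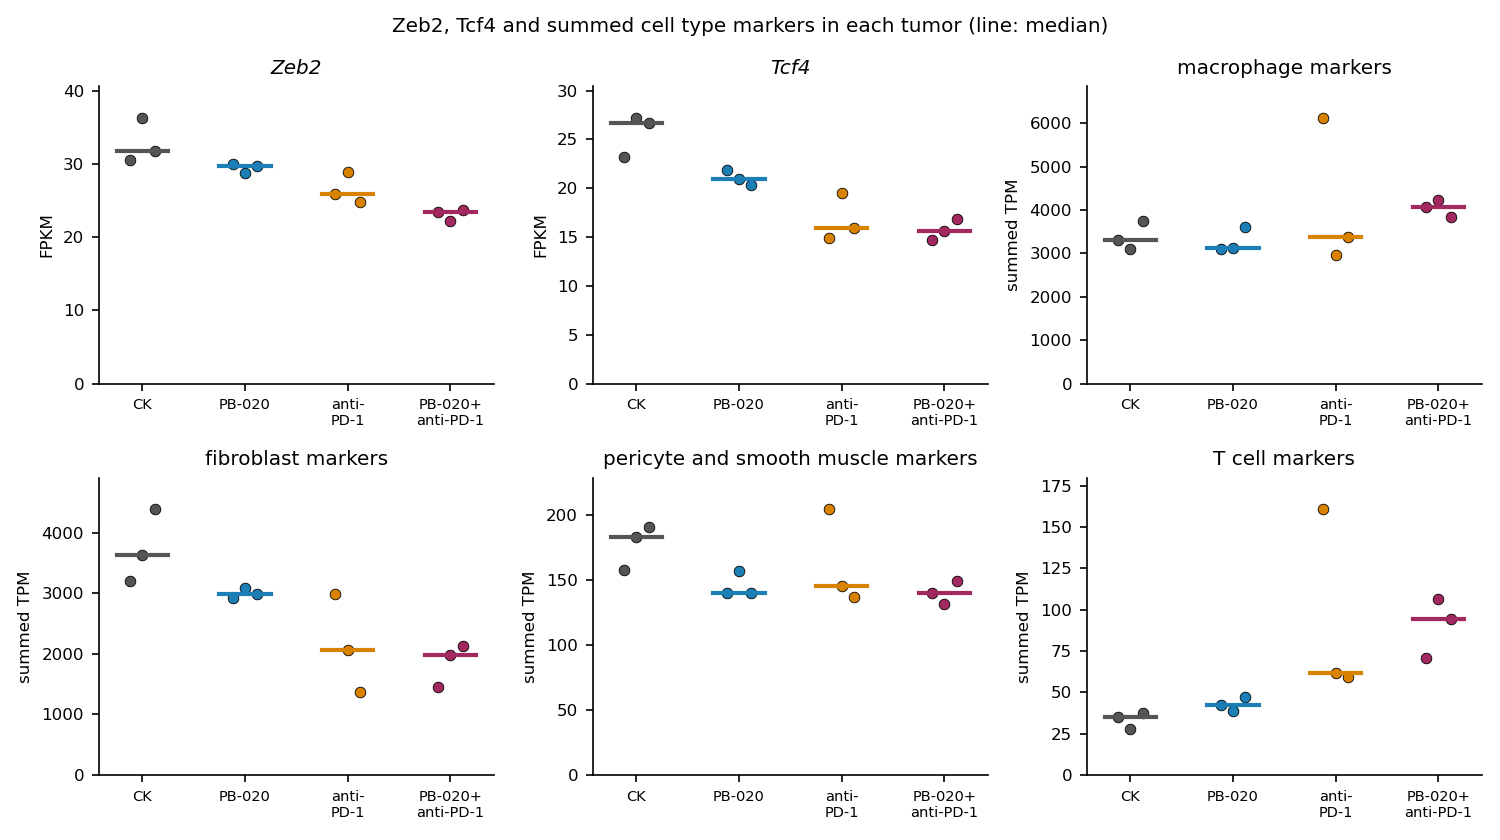
Zeb2 and Tcf4 in FPKM, and the summed TPM of 4 lists of cell type markers, in each tumor by treatment, with the group median as a line. Zeb2, Tcf4 and the summed fibroblast markers are lower in the combination than in CK, while the macrophage and T cell sums are higher. Col3a1 weighs most in the fibroblast sum and Lyz2 in the macrophage sum. Of the 10 fibroblast markers, 6 had a positive log2 change in edgeR, and of the 10 macrophage markers 0 were called.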

How the data were processed

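RNA of 12 MC38 tumors, 3 in each of 4 groups given by the labels, was sequenced by the authors as paired reads, aligned with Bowtie2 and quantified per gene with RSEM. The submitters' processing notes also name HISAT, with no role, and GRCm38.p6. The methods name mm10 or hg19. The annotation, the versions and the use of strand are not given in the sources used here. The authors deposited expected counts, which RSEM estimates, of which 91.0% were whole. The FPKM values, per length and per library total, and the TPM values, which have one total in all libraries, are as the authors deposited them.

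Expected counts were rounded and tested in R 4.3.3 with edgeR 4.0.16 (filterByExpr with a minimum count of 10, TMM, robust quasi-likelihood, 4 group means over the 12 libraries). Tests were two-sided, with Benjamini-Hochberg adjustment over the 13563 genes tested. The study's own test, on FPKM with a fold threshold, was not used, since counts were at hand. Standard errors and 95% intervals come from this fit. They cover spread between tumors and counting error. On simulated counts for the combination against CK (13486 genes), edgeR recovered 37 of 67 with a 1.5-fold change, 54 of 67 with 2-fold and 53 of 66 with 3-fold. In the same counts 4 unchanged genes were called, and in counts with no change at all 0 were called. No simulated fold was as small as the called changes of Zeb1 and Zeb2.

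Levels are FPKM and marker sums are TPM. Correlations used log2 CPM (prior count 2) less the group mean, in Python 3.11.15. Promoters came from a RefSeq table (GRCm38.p6), and overlapping genes from GENCODE M21. Of the gene numbers, 18091 of 18211 matched RefSeq. The 10 genes, the EMT lists and the marker lists (fibroblast, macrophage, T cell, endothelial, pericyte and smooth muscle, skeletal muscle, keratinocyte, adipocyte and erythroid) were chosen with earlier results of these data known. From each EMT list the text names up to 4 genes with the largest log2 change among those called in the combination against CK, with Cdh1, Cdh2, Krt18, Fn1, Ovol2, Grhl2, Esrp1 and Tcf4 in every case, and per gene the 2 most alike. Klf4, Cdx2, Gata6, Foxa1, Lgals4 and the marker genes were named after seeing their values and fall outside it.

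The alternatives were DESeq2 1.42.0, limma 3.58.1 on log2(FPKM + 1), no filter, a strict filter, scaling by library size, a fit of the compared groups alone, a block for the replicate number, and each library left out. Leaving out 3 or 4 libraries together was chosen after seeing the data.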

Additional observations from a re-analysis of the deposited data

How the results depend on the processing

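For single genes against CK, 303 of 360 alternative values had the same direction and the same side of the threshold, 14 lost a call, 1 gained one and 42 changed sign. The sign changes were all of changes that were not called. For Zeb1 in PB-020 the log2 change was -0.0005367 with DESeq2, -0.01625 with limma, -0.003012 with a strict filter and -0.02184 with library size scaling. For Twist2 in PB-020 it was -0.009838 with limma and -0.01017 with library size scaling, which also gave -0.003531 for Prrx1 in anti-PD-1. With the 3 libraries holding fat, muscle or skin genes left out, chosen after seeing the data, it was 0.1362 for Snai1, -0.06626 for Twist2 and 0.03793 for Prrx1 in PB-020, 0.01335 for Zeb1 in anti-PD-1, and 0.08255 for Snai1, -0.05904 for Twist1 and 0.03445 for Prrx1 in the combination. With PB-020 tumor 3 left out too, it was 0.1604 for Snai1 and -0.1464 for Twist2 in PB-020, 0.01336 for Zeb1 in anti-PD-1, and 0.08263 for Snai1, -0.05896 for Twist1 and 0.03453 for Prrx1 in the combination. Without 1 library, values in PB-020 ran from -0.1111 to 0.03222 for Prrx1, -0.1228 to 0.1308 for Snai1, -0.1928 to 0.08027 for Snai2, -0.1607 to 0.03511 for Twist1, -0.07245 to 0.1112 for Twist2 and -0.05637 to 0.03995 for Zeb1. In anti-PD-1 they ran from -0.03292 to 0.07454 for Prrx1, -0.07572 to 0.1806 for Snai1, -0.0591 to 0.1072 for Twist1 and -0.1857 to 0.004993 for Twist2. In the combination they ran from -0.1144 to 0.008524 for Prrx1, -0.1469 to 0.1108 for Snai1 and -0.03535 to 0.0797 for Twist1.

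The count of the 8 genes called in the combination against CK was 1 in place of 2 with no filter and without the 3 or the 4 libraries, 3 (Snai2 added) with only the groups compared, and 1 to 2 without 1 library. In anti-PD-1 against CK it was 0 in place of 1 with only the groups compared and without the 3 or the 4 libraries, and 0 to 1 without 1 library. For the anti-PD-1 effect over both PB-020 states it was 1 in place of 2 with no filter and without the 3 or the 4 libraries, 3 (Snai2 added) with DESeq2, and 1 to 3 without 1 library, with 1 left without CK tumor 3, PB-020 tumor 1, anti-PD-1 tumor 1 or any 1 combination tumor. For the combination against PB-020 it was 0 in place of 1 without the 4 libraries and 0 to 1 without 1 library. For the other comparisons it was 0 under every alternative. The causes were not tested, beyond fewer tumors in the fits without libraries. Of the correlated pairs, 0 in place of 1 passed with log2(FPKM + 1) values. Among all genes, anti-PD-1 against CK had 1120 calls, 3 with only the groups compared, 407 without the 3 libraries, 429 without the 4 and 137 to 1905 without 1 library. The combination against CK had 2434 and, without 1 library, 864 to 2045. The combination against PB-020 had 455, with 1090 in DESeq2, 1535 with only the groups compared, 872 without the 3 libraries and 0 to 397 without 1 library.

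The labels do not say whether the replicate numbers pair the tumors. Of 18 same-number pairs of tumors, 2 had deviations correlated over 0.1 (range -0.21 to 0.289). Pairs of tumors with different numbers were not compared, so these values cannot decide it. With the replicate number as a block, the counts of called genes were 0, 1 and 2 of 8 in PB-020, anti-PD-1 and the combination, as without it, with 870 and 2010 of all genes in the last 2. The depth limits Epcam and Krt8, at 0 to 17 counts a library. With 3 tumors a group, the 95% intervals of the 8 genes are wide beside changes of the size of Zeb1.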
